A study of Mus musculus with 15 samples.

Results

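GCPB+ cells, from the ventricular-subventricular zone or V-SVZ, a stem cell niche that lines the lateral ventricles, were set against GFP-positive astrocytes of the cerebral cortex (CTX), gene by gene. The comparison rests on 6 of the 15 libraries of the study, 3 of each population, taken by their labels and not by any measured value. Both populations were sorted from hGFAP::GFP mice, in which the human GFAP promoter drives GFP, and each library pooled male and female animals. GCPB+ cells were GFP-positive and carried PDGFRβ and CD133 on their surface while lacking EGFR and CD24. CTX cells were selected on GFP alone, so that every cell of both populations came through the same reporter but those of the V-SVZ through 4 further gates. GPB+ cells of the V-SVZ, which were sorted like GCPB+ cells but lacked CD133, served as the most similar other population, also with 3 libraries. The age of the animals, and whether the libraries of a group came from separate animals, was not given in the sources used here, so that p-values measure the spread between these libraries, which may be technical.

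Astrocytes of the cortex and stem cells of the V-SVZ are both glial cells with shared transporters, water channels and lipid carriers. The stem cells are known as specialised astrocytes that keep part of the regional transcription factor code of their embryonic origin, and some of them reach the ventricle with a process that carries a primary cilium and CD133. Most are quiescent at any time, and the appearance of EGFR marks their activation. The comparison asks which genes set such cells apart from astrocytes of another brain region.

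RNA was amplified from poly(A) tails and counted per gene. The GCPB+ libraries held 31594988, 14818000 and 33665687 counts and the CTX libraries 15908173, 13802947 and 24985372, and 17354 to 19193 genes had at least 1 count in each. Levels below are CPM, in which a count is set against its library's total after TMM scaling, given for replicates 1, 2 and 3 in that order, or as the mean ± SD with n = 3 libraries. They are not scaled to gene length, so that only values of the same gene can be compared. A floor of 3 counts was worth 0.102 to 0.246 CPM, and counting intervals cover counting error only. Across genes, log2 CPM correlated at 0.944 to 0.969 between GCPB+ libraries, of which replicate 1 stood somewhat apart from the other two, at 0.964 to 0.967 between CTX libraries and at 0.918 to 0.937 between GCPB+ and CTX libraries. Differences are log2 fold changes of GCPB+ over CTX ± SE from edgeR's quasi-likelihood test, called at an adjusted p (Benjamini-Hochberg over 16302 genes) under 0.05. In sorted bulk RNA, fewer cells of a type and less RNA per cell cannot be told apart.

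The genes that mark GCPB+ cells were present in all 3 GCPB+ libraries. Prom1, which encodes the sorting antigen CD133 (mm10 chr5:43993622-44102032), had 139, 181 and 138 CPM in GCPB+ cells, against 77.3, 49.6 and 41.2 CPM in CTX cells. The groups did not overlap, and the difference of 1.45 ± 0.29 was called (adjusted p = 0.00522). CTX cells were not sorted on CD133, so that this difference cannot be told apart from the gate. Prom1 RNA was thus lower in CTX cells but well above the floor there, and in GPB+ cells, which lack CD133, it had 26.7, 34.5 and 24.0 CPM. Gfap (chr11:102887336-102897200), the intermediate filament gene whose human promoter drives the reporter, had 146, 223 and 262 CPM in GCPB+ cells, against 47.2, 48.0 and 20.8 CPM in CTX cells. Every GCPB+ library was above every CTX library (2.45 ± 0.42, adjusted p = 0.00167), although both populations were sorted as GFP-positive. DESeq2 did not call Gfap (adjusted p = 0.169). Of the other sorting genes, Pdgfrb had 296, 417 and 312 CPM in GCPB+ cells, against 229, 193 and 125 CPM in CTX cells, and was not called (0.91 ± 0.35, adjusted p = 0.144). It was called in a fit of the 6 libraries alone (adjusted p = 0.0376). Egfr had 105, 151 and 209.8 CPM in the EGFR-negative GCPB+ cells, against 169.7, 171 and 163 CPM in CTX cells, with overlapping groups (adjusted p = 0.835). Cd24a, which marks neuroblasts and ependymal cells and was gated out, summed to 63 counts in GCPB+ cells and 3 in CTX cells, a ratio of 15.5, 95% counting interval 5.08 to 77.3. It was called (adjusted p = 0.0421), but the call was lost for Cd24a without GCPB+ replicate 2 or 3 or CTX replicate 1, 2 or 3 (adjusted p = 0.0843 to 0.133).

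Thbs4 separated the populations almost completely. It encodes thrombospondin 4, a matrix protein that astrocytes of the V-SVZ secrete, and lies at chr13:92751586-92794818. Thbs4 had 68.8, 165 and 139 CPM in GCPB+ cells, against 0, 0 and 0.209 CPM in CTX cells. The 3 GCPB+ libraries held 7995 counts and the 3 CTX libraries 5, at a ratio of 1182, 95% counting interval 506 to 3642. Its fitted change was the largest rise among genes with a mean of at least 20 CPM in the higher group (10.25 ± 0.63, adjusted p = 4e-08), and GPB+ cells had 64.0, 143 and 129.6 CPM.

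In all, 681 genes (4.18% of those tested) were higher in GCPB+ cells than in CTX cells and 415 (2.55%) were lower, or 6.72% in either direction. More than 2-fold differences were called for 490 higher (3.01%) and 325 lower genes (1.99%), and 20.4% of genes had an unadjusted p under 0.05. The 3 GCPB+ libraries lay above all CTX libraries for 14.8% of the genes tested and below them for 13.5%. The median log2 fold change over all genes was -0.00395. The gene lists used below were chosen with earlier results of these data known. Of the calls, 62.1% were higher in GCPB+ cells, but this share fell to 50.6% in a fit of the 6 libraries alone (718 higher and 702 lower) and to 48.2%, 53.5% and 44.0% with limma on log2(FPKM + 1), on log2(FPKM + 0.1) and on log2(FPKM + 1) of all genes. It was 68.0% without GCPB+ replicate 2 and 66.5% without GCPB+ replicate 3, and between 58.8% and 64.7% in the other fits.

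**Figure D1:**
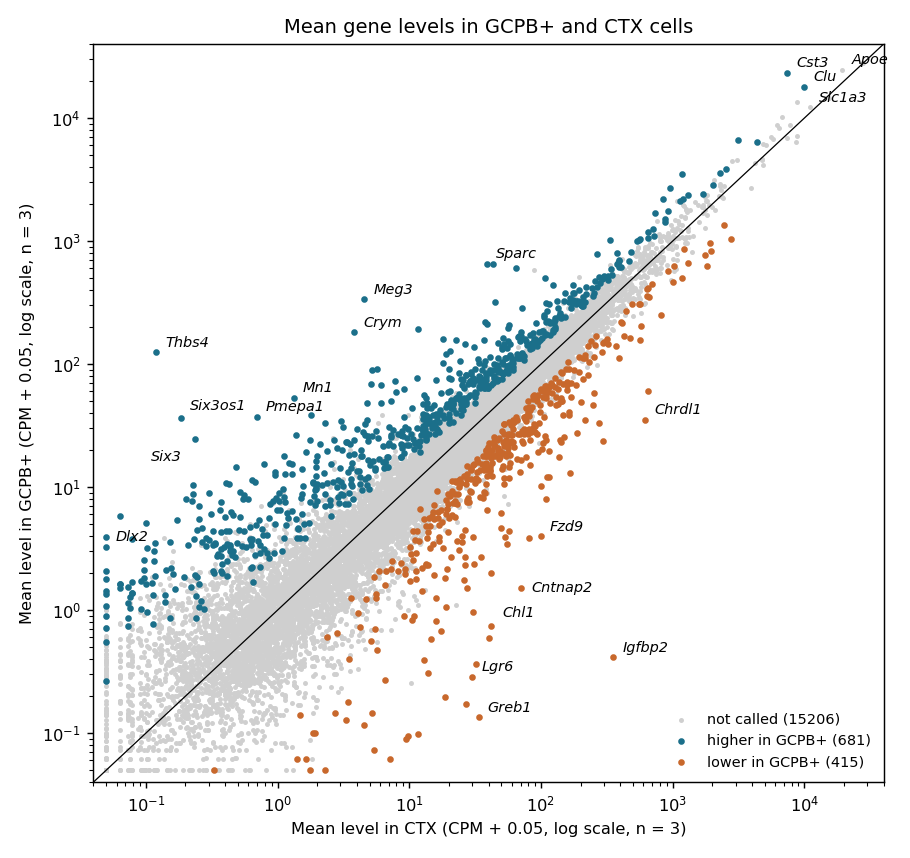
Mean level of each of the 16302 genes tested in CTX cells (horizontal axis) and GCPB+ cells (vertical axis), in CPM with 0.05 added, both on log scales, n = 3 libraries each. Blue points are the 681 genes called higher and orange points the 415 called lower in GCPB+ cells, grey points were not called, and the line marks equal levels. Thbs4, Six3 and Six3os1 lie far above the line and Igfbp2 and Greb1 far below it, while the abundant astrocyte genes Apoe and Slc1a3 lie near it.

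A few genes were well expressed in one population and near the floor in the other. By a rule chosen after the values were seen (a mean of at least 20 CPM in one group and under 1 CPM in the other), there were 4 such genes in GCPB+ cells (Thbs4, Six3, Six3os1 and Pmepa1) and 8 in CTX cells (Igfbp2, Greb1, Nrn1, Lgr6, Lyn, Cyp27a1, Chl1 and Cit). Promoter windows of 300 bases, from 250 before to 50 after the start, are shown for 6 genes of strong contrast: Thbs4 and Igfbp2 as the largest rise and the largest fall, Six3 with its antisense neighbour Six3os1 as a pair that rose together, and Zic1 with Zic4 as a pair that fell together. They were taken from RefSeq (GRCm38.p6), read 5′ to 3′ on the gene's own strand. Igfbp2 had 2 windows listed, of which 1 is shown. Capitals mark matches on either strand to TATAAA, known as the TATA box, to CCAAT, known as the CAAT box, and to GGGCGG, known as the GC box, and no matches overlapped.
Thbs4 (chr13:92794769-92795068, minus strand): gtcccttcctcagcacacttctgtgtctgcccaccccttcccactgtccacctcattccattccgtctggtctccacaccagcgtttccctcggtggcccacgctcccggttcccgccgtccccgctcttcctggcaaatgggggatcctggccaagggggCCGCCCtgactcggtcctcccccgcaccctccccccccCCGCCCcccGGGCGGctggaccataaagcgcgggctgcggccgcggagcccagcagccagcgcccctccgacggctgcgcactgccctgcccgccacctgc
Six3 (chr17:85620584-85620883, plus strand): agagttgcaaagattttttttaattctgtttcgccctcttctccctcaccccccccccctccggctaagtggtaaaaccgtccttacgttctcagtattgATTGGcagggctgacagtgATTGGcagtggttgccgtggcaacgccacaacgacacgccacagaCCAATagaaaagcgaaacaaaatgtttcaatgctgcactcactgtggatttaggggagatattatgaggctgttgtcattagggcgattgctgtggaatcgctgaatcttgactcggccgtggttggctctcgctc
Six3os1 (chr17:85618347-85618646, minus strand): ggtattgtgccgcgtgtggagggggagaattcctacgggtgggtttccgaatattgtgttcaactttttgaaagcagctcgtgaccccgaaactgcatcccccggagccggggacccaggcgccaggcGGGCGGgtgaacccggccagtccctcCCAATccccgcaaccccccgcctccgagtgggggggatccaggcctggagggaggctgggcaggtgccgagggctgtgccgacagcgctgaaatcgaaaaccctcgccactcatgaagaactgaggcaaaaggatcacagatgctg
Igfbp2 (chr1:72824230-72824529, plus strand): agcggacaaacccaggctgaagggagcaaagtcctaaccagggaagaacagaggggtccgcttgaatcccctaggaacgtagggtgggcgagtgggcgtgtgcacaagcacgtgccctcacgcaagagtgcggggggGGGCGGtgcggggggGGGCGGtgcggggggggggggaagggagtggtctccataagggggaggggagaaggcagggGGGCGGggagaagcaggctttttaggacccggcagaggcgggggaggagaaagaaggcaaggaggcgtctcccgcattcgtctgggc
Zic1 (chr9:91365719-91366018, minus strand): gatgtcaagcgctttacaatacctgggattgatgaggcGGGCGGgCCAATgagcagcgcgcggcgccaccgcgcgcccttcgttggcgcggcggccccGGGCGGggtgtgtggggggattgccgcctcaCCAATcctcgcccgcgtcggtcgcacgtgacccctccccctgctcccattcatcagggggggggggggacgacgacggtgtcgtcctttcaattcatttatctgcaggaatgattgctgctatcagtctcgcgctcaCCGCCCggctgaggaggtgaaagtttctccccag
Zic4 (chr9:91368722-91369021, plus strand): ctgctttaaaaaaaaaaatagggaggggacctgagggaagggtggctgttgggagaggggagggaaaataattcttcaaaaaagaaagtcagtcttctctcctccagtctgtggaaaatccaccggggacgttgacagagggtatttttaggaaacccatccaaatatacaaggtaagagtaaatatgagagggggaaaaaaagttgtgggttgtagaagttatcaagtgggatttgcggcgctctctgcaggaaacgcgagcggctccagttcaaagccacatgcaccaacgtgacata

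None of these windows held TATAAA, which is in 13.6% of the 32851 promoter windows of the same length in the RefSeq table. GGGCGG, in 35.7% of all windows, was found 3 times each in those of Thbs4, Igfbp2 and Zic1, once in that of Six3os1 and not in those of Six3 and Zic4. CCAAT, in 37.4% of all windows, was found 3 times in that of Six3, 2 times in that of Zic1 and once in that of Six3os1. A match is a description of the letters, not of a bound site. The starts used for the windows of Six3 and Six3os1 lie 2438 bases apart on opposite strands of chromosome 17. Those used for Zic1 and Zic4 lie 3204 bases apart on opposite strands of chromosome 9. The RefSeq spans of the plus-strand genes Six3 and Zic4 begin earlier, at 85613608 and 91365631, and distances from there would differ. The library kit does not mark strand. The RefSeq spans of each pair overlap, but the deposited spans do not, and whether the pairs shared reads in the counting was not tested.

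The largest rises and falls, also those by CPM given below, were picked from called genes whose groups did not overlap. Lack of overlap in them is thus part of the choice. Most list members named below were picked as called with the largest changes, which also favours lack of overlap. Of all genes tested, 14.8% lay above and 13.5% below without overlap. Among the largest rises, the first after Thbs4 were the forebrain transcription factor gene Six3 and its antisense RNA. Six3 (chr17:85620581-85629302) had 29.5, 20.8 and 23.5 CPM in GCPB+ cells, against 0.143, 0.0767 and 0.335 CPM in CTX cells (6.85 ± 0.45, adjusted p = 8.43e-08). Six3os1 (chr17:85601932-85618396) had 39.7, 33.8 and 36.6 CPM in GCPB+ cells, against 0.286, 0.0767 and 0.0419 CPM in CTX cells, and its 2570 and 6 counts gave a ratio of 317, 95% counting interval 145 to 864. All 3 GCPB+ libraries were alike and far above the CTX libraries for both. The imprinted long noncoding RNA gene Meg3 (chr12:109540996-109571729) had 239, 362 and 414 CPM in GCPB+ cells, against 8.79, 3.53 and 1.21 CPM in CTX cells (6.27 ± 0.53, adjusted p = 2.18e-06). Crym, which encodes a thyroid hormone binding protein, had 187, 148 and 213 CPM in GCPB+ cells, against 6.93, 2.30 and 2.05 CPM in CTX cells (5.63 ± 0.57, adjusted p = 1.11e-05). Every GCPB+ library was far above every CTX library, and GPB+ cells had 645, 639 and 607 CPM. Mn1, a transcriptional coregulator gene, had 63.3, 46.9 and 50.1 CPM in GCPB+ cells, against 1.29, 1.84 and 0.712 CPM in CTX cells (5.45 ± 0.34, adjusted p = 4e-08). Pmepa1, a TGF-beta target that restrains that pathway, had 46.0, 28.2 and 37.7 CPM in GCPB+ cells, against 0.500, 0.767 and 0.670 CPM in CTX cells (5.84 ± 0.40, adjusted p = 1.21e-07). Both were thus low in every CTX library.

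Sparc, a secreted matricellular protein gene, was also among the 12 largest rises. It had 808, 534 and 628 CPM in GCPB+ cells, against 51.9, 32.1 and 31.7 CPM in CTX cells (4.09 ± 0.24, adjusted p = 3.85e-08). The proteoglycan gene Bgn had 37.7, 28.6 and 49.7 CPM in GCPB+ cells, against 0.643, 1.38 and 3.22 CPM in CTX cells (4.38 ± 0.40, adjusted p = 4.52e-06). In both genes the lowest GCPB+ library was several times above the highest CTX library. The complement gene C4b rose by 4.09 ± 0.61 to 194 ± 53.1 CPM, against 11.5 ± 8.71 CPM in CTX cells, but its near-identical neighbour C4a makes the counts of both uncertain. Sez6, a neuronal membrane protein gene, rose by 4.395 ± 0.49 to 37.5, 30.6 and 11.6 CPM, against 1.43, 2.07 and 0.502 CPM in CTX cells, and GCPB+ replicate 3 was its lowest GCPB+ library.

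**Figure D2:**
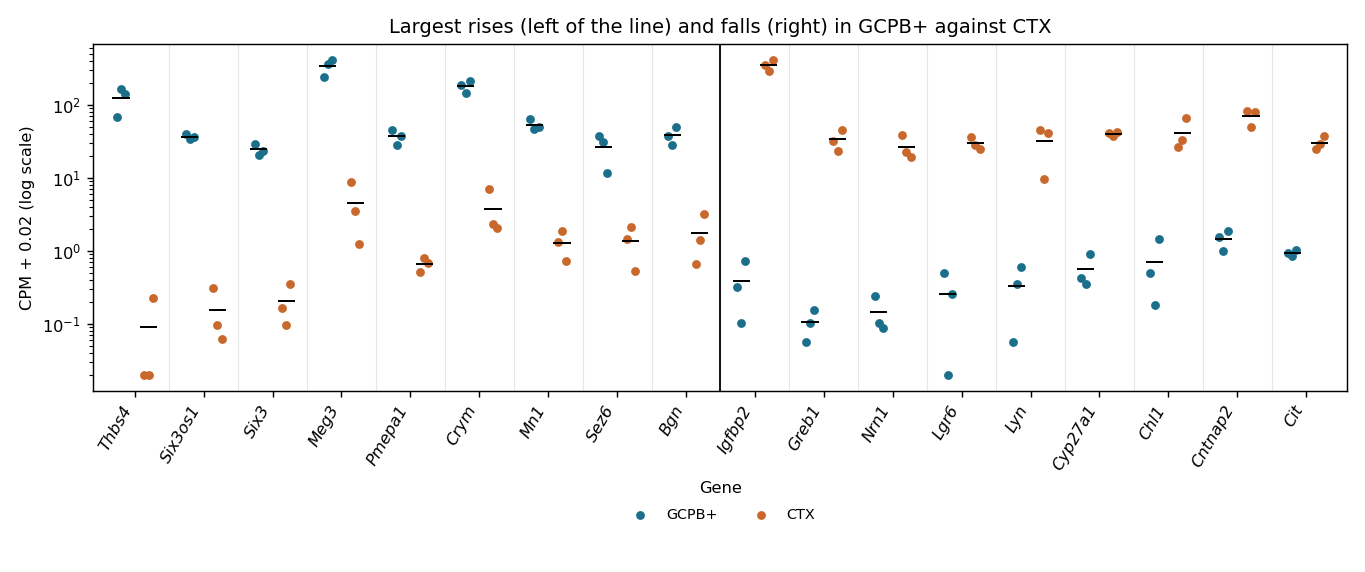
Level of the 9 largest rises and 9 largest falls in each library (CPM with 0.02 added, log scale). Blue points are the 3 GCPB+ libraries and orange points the 3 CTX libraries, with replicates 1 to 3 from left to right, and bars are group means. Genes were picked only if their groups did not overlap. Thbs4 reaches 165 CPM in GCPB+ cells and Igfbp2 417 CPM in CTX cells.

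The largest fall was that of Igfbp2, which encodes a secreted binding protein of insulin-like growth factors. Igfbp2 (chr1:72824480-72852471) had 0.295, 0.0819 and 0.712 CPM in GCPB+ cells, against 352, 292 and 417 CPM in CTX cells (-9.71 ± 0.57, adjusted p = 3.85e-08). All GCPB+ libraries were under 1 CPM, whereas the CTX libraries were uniformly high. Igfbp2 is also a choroid plexus gene, and CTX replicate 1 held 173 counts of the choroid plexus marker Ttr while the other 5 libraries held 0. Igfbp2 had 292 and 417 CPM in the CTX libraries without Ttr and 352 CPM in the one with it. Other choroid plexus genes had low counts. Folr1 had 0, 0 and 2 counts in GCPB+ cells, against 0, 7 and 0 in CTX cells. Kcne2 had 0, 0 and 0 counts in GCPB+ cells, against 8, 4 and 0 in CTX cells. The part of choroid plexus RNA in the Igfbp2 values was not tested. Of 10 choroid plexus genes tested, Enpp2 was higher (2.64 ± 0.69) and Igfbp2 lower, beside 4.18% higher and 2.55% lower of all genes. The call was lost for Enpp2 without GCPB+ replicate 2 or 3 or CTX replicate 2 or 3 (adjusted p = 0.0588 to 0.132). Nor was Enpp2 called by DESeq2 (adjusted p = 0.138) or by limma on log2(FPKM + 1) of all genes (0.0597). Greb1, known as an estrogen-regulated gene, had 0.0368, 0.0819 and 0.136 CPM in GCPB+ cells, against 32.5, 23.4 and 45.0 CPM in CTX cells, with 6 and 1836 counts in all. Nrn1, a neurite growth factor gene, had 0.221, 0.0819 and 0.0678 CPM in GCPB+ cells, against 38.5, 22.8 and 19.5 CPM in CTX cells, with 9 and 1302 counts in all. Both were at the floor in the V-SVZ cells (-8.51 ± 0.74, adjusted p = 2.87e-06, and -7.64 ± 1.07, adjusted p = 0.000319).

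Further falls took in receptors, adhesion molecules and enzymes. Lgr6, an R-spondin receptor of the Wnt pathway, had 0.479, 0 and 0.237 CPM in GCPB+ cells, against 36.4, 28.6 and 25.2 CPM in CTX cells (-6.78 ± 1.15, adjusted p = 0.0017). The Wnt receptor gene Fzd9 had 5.67, 3.60 and 2.54 CPM in GCPB+ cells, against 137, 86.0 and 75.6 CPM in CTX cells (-4.65 ± 0.68, adjusted p = 0.000445). For both Wnt receptor genes the lowest CTX library was many times above the highest GCPB+ library. The adhesion genes Chl1 and Cntnap2 changed by -5.82 ± 1.13 and -5.56 ± 0.55. Chl1 averaged 0.689 ± 0.656 CPM in GCPB+ cells and 41.9 ± 20.8 CPM in CTX cells, and Cntnap2 1.45 ± 0.443 CPM and 70.5 ± 18.2 CPM in the same order. The sterol 27-hydroxylase gene Cyp27a1 (-6.16 ± 1.31, adjusted p = 0.01), the kinase genes Cit (-5.02 ± 0.71) and Lyn (-6.65 ± 1.44) and the stress response gene Nupr1 (-4.38 ± 0.52) completed the group, with GCPB+ means of 0.538, 0.919, 0.314 and 3.81 CPM and CTX means of 40.5, 30.4, 32.2 and 81.0 CPM. Nr4a2, an activity-induced nuclear receptor gene, had 0.516, 1.39 and 2.47 CPM in GCPB+ cells, against 3.07, 74.0 and 5.65 CPM in CTX cells, so that CTX replicate 2 set its mean. The calls were lost for Cyp27a1 without GCPB+ replicate 2 (adjusted p = 0.0566) and for Nr4a2 without GCPB+ replicate 1 or 2 or CTX replicate 2 (adjusted p = 0.0507 to 0.254), and limma on log2(FPKM + 1) did not call Nr4a2 (adjusted p = 0.0801).

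By absolute difference in CPM, the gains of GCPB+ cells were led by abundant astrocyte genes. Cst3, which encodes the protease inhibitor cystatin C, had 25682, 24986 and 19261 CPM in GCPB+ cells, against 7862, 7534 and 6731 CPM in CTX cells (1.66 ± 0.16, adjusted p = 6.46e-06). The tetraspanin gene Cd81 had 7248, 7476 and 5039 CPM in GCPB+ cells, against 3504, 3394 and 2509 CPM in CTX cells (1.07 ± 0.19, adjusted p = 0.00227). Scd2, a fatty acid desaturase gene, had 3013, 3525 and 4020.3 CPM in GCPB+ cells, against 1155, 1172 and 1212 CPM in CTX cells (1.58 ± 0.16, adjusted p = 1.2e-05). These 3 genes were higher by amounts well beyond the spread of either group. Dkk3, of the Dickkopf family, rose by 1.51 ± 0.22, and the lipid carrier gene Clu and the peroxidase gene Prdx6 rose by 0.84 ± 0.24 and 0.56 ± 0.15. The losses were led by the serine protease gene Htra1 (1724, 847 and 565 CPM in GCPB+ cells, against 3300.1, 2436 and 2523 CPM in CTX cells) and by Car2, Luzp2, Slco1c1, Sat1 and Gjb6, which changed by -1.54 ± 0.44, -1.23 ± 0.32, -0.87 ± 0.21, -1.21 ± 0.20 and -0.99 ± 0.20. When a library was left out, calls were lost for Clu without GCPB+ replicate 1, 2 or 3 or CTX replicate 2 or 3 (adjusted p = 0.0669 to 0.179), Prdx6 without GCPB+ replicate 1 or 2 or CTX replicate 1, 2 or 3 (adjusted p = 0.0511 to 0.133), Htra1 without GCPB+ replicate 2 (adjusted p = 0.0539), Car2 without GCPB+ replicate 1, 2 or 3 or CTX replicate 1, 2 or 3 (adjusted p = 0.0827 to 0.157), Luzp2 without GCPB+ replicate 1 or 2 or CTX replicate 1, 2 or 3 (adjusted p = 0.0528 to 0.109) and Slco1c1 without GCPB+ replicate 2 or CTX replicate 1 or 3 (adjusted p = 0.0753 to 0.109). DESeq2 did not call Cd81 (adjusted p = 0.102), Dkk3 (0.0775), Clu (0.708), Prdx6 (0.551), Htra1 (0.256), Car2 (0.489), Luzp2 (0.25), Slco1c1 (0.444), Sat1 (0.212) or Gjb6 (0.783), and limma on log2(FPKM + 1) of all genes did not call Cst3 (adjusted p = 0.216).

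**Figure D3:**
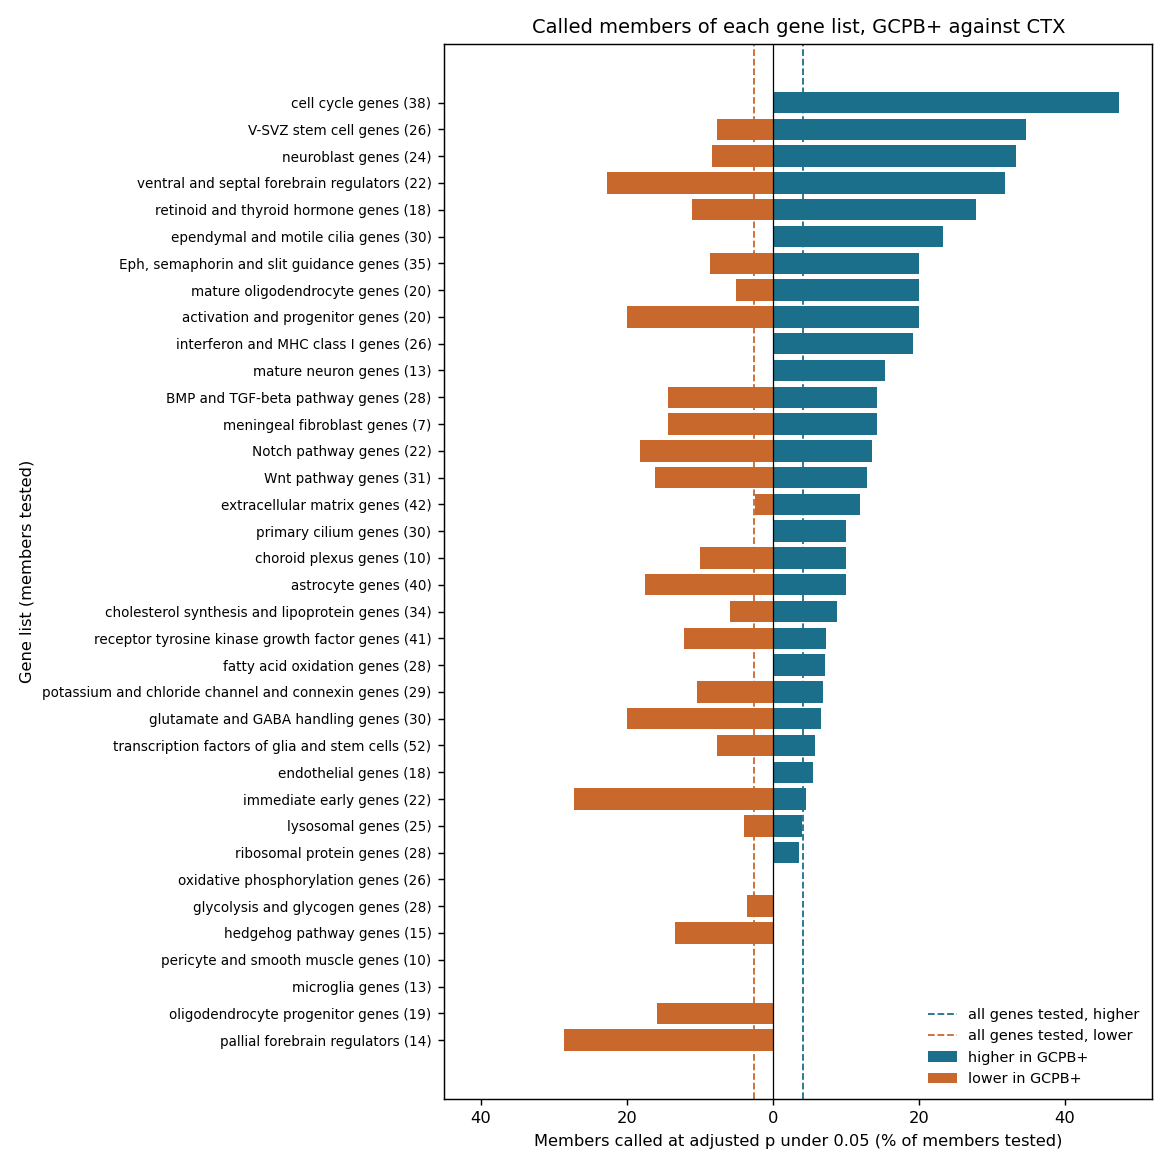
Share of the tested members of each of 36 gene lists (all but the 5 sorting genes) called higher (blue, to the right) or lower (orange, to the left) in GCPB+ cells than in CTX cells, in percent of the members tested, whose number is in brackets. Dashed lines mark the shares over all genes tested, 4.18% higher and 2.55% lower. Cell cycle genes have the highest share of members called higher, and the pallial regulators and immediate early genes the highest shares called lower.

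Transcription factors of forebrain regions moved in both directions, and many were not called. Of 22 tested ventral and septal regulators, 7 were higher and 5 lower (median 0.36), and 10 were not called, against 4.18% higher and 2.55% lower of all genes. Those higher included Six3, Dlx1, Dlx2, Gsx2, Vax1 and Meis1, known from the ventral forebrain and the striatal lineage. This grouping by region was made after the values were seen. The 5 lower ones were the zinc finger genes Zic1, Zic2, Zic4 and Zic5, known from the septum and the medial forebrain, and Olig2, a regulator of oligodendrocyte and astrocyte fate. Of 14 pallial regulators, none was higher and 4 were lower (Emx2, Lhx2, Dmrta2 and Lef1, median -0.13), and 10 were not called. Among single libraries left out, the count of lower ventral and septal genes was 3 without GCPB+ replicate 1 or CTX replicate 1, and that of lower pallial genes 2 without GCPB+ replicate 2 or 3 or CTX replicate 1 or 3. The count of higher ventral and septal genes was 3 with limma on log2(FPKM + 1).

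Several ventral genes were low in GCPB+ cells and at or near 0 in CTX cells. Gsx2, which specifies ventral progenitors, had 1.84, 2.29 and 2.03 CPM in GCPB+ cells, against 0.143, 0 and 0 CPM in CTX cells, from 138 and 2 counts (ratio 51.0, 95% counting interval 13.9 to 425). Dlx2, which drives interneuron differentiation, had 7.66, 0.983 and 1.02 CPM in GCPB+ cells and no count in CTX cells, so that it was at least 61.6-fold higher at a floor of 3 counts over the CTX libraries. GCPB+ replicate 1 held most of the Dlx2 counts and also the most Tubb3 and Dcx, neuroblast genes given below whose part in the Dlx2 value was not tested. Dlx1 had 1.62, 0.574 and 1.66 CPM in GCPB+ cells, against 0, 0.230 and 0.0419 CPM in CTX cells (ratio 18.5, 95% counting interval 6.998 to 69.2). Dlx1 was above the CTX libraries in every GCPB+ library. On a scale that damps low values, log2(FPKM + 1), limma did not call Dlx1 (adjusted p = 0.344), Dlx2 (0.19) or Gsx2 (0.0552).

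Zic genes ran the other way. Zic2 had 0.405, 0.737 and 0.441 CPM in GCPB+ cells, against 14.9, 14.1 and 14.5 CPM in CTX cells (-4.80 ± 0.94, adjusted p = 0.0045). Zic1 had 0.147, 0.246 and 0.271 CPM in GCPB+ cells, against 6.22, 2.76 and 10.6 CPM in CTX cells (-4.86 ± 0.74, adjusted p = 0.000642). Zic4, its head-to-head neighbour, had 0, 0.0819 and 0.203 CPM in GCPB+ cells, against 9.08, 0.767 and 5.61 CPM in CTX cells (-5.63 ± 1.53, adjusted p = 0.0403). Every GCPB+ library was below every CTX library for these 3 genes, and Zic2 was nearly constant over the CTX libraries. Among pallial genes, Emx2, which patterns the cortex, had 23.9, 10.4 and 12.5 CPM in GCPB+ cells, against 55.1, 50.3 and 69.6 CPM in CTX cells (-1.90 ± 0.33, adjusted p = 0.00194). Lef1, a transcription factor of the Wnt pathway, had 1.44, 0.901 and 1.29 CPM in GCPB+ cells, against 19.7, 11.7 and 16.4 CPM in CTX cells (-3.70 ± 0.49, adjusted p = 0.000188). Both pallial genes were lower in each GCPB+ library, although Emx2 stayed above the floor. By contrast Pax6 (59.7, 64.8 and 59.5 CPM in GCPB+ cells, against 62.6, 72.9 and 67.6 CPM in CTX cells, adjusted p = 0.743) was not called, and its groups overlapped. Calls were lost for Zic4 without GCPB+ replicate 1, 2 or 3 or CTX replicate 1 or 3 (adjusted p = 0.0764 to 0.142), Vax1 without GCPB+ replicate 1, 2 or 3 or CTX replicate 1, 2 or 3 (adjusted p = 0.0608 to 0.159), Lhx2 without GCPB+ replicate 2 or 3 or CTX replicate 1 or 3 (adjusted p = 0.0764 to 0.149) and Dmrta2 without GCPB+ replicate 2 or 3 or CTX replicate 1, 2 or 3 (adjusted p = 0.0623 to 0.113).

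**Figure D4:**
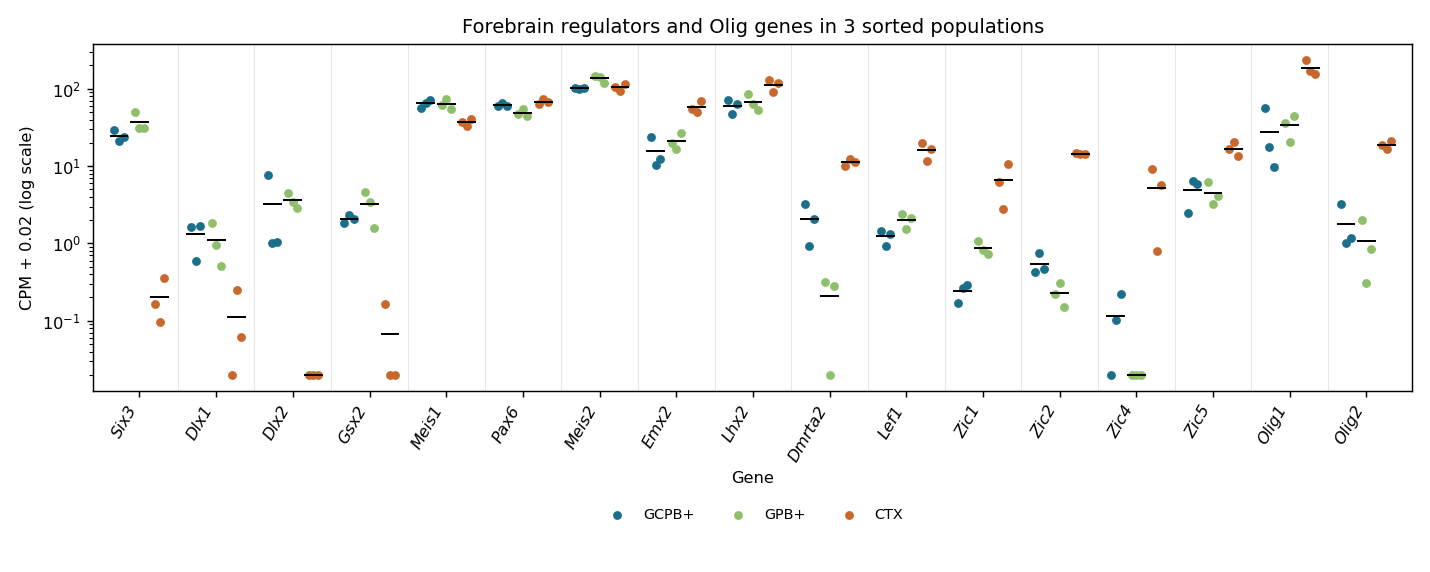
Level of 17 forebrain regulators and Olig genes in each library (CPM with 0.02 added, log scale). Blue points are GCPB+ cells, green points GPB+ cells and orange points CTX cells, 3 libraries each with replicates 1 to 3 from left to right, and bars are group means. From Six3 to Meis1 the GCPB+ points lie above the CTX points, from Emx2 to Olig2 below them, and Pax6 and Meis2 lie at like levels in the 3 populations.

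Of 26 tested genes known from V-SVZ stem cells, 9 were higher and 2 lower in GCPB+ cells (median 0.36). Of all genes, 4.18% were higher and 2.55% lower. The 9 were Thbs4, Gfap, Prom1 and Cd81, described above, Tnc, Lpar1, Nes, the tetraspanin gene Cd9 and the endothelin receptor gene Ednrb. Of these, Thbs4, Gfap and Prom1 were named beforehand as markers of GCPB+ cells. Only GCPB+ cells were sorted on CD133, so that the rise of Prom1 cannot be told apart from the gate. Tnc, a matrix glycoprotein gene of the stem cell niche, had 44.0, 88.6 and 90.5 CPM in GCPB+ cells, against 12.6, 18.5 and 16.3 CPM in CTX cells (2.23 ± 0.35, adjusted p = 0.00089). Lpar1, a lysophosphatidic acid receptor gene, had 12.5, 9.34 and 11.97 CPM in GCPB+ cells, against 1.14, 0.307 and 0.335 CPM in CTX cells (4.26 ± 0.88, adjusted p = 0.00672). Nes, the intermediate filament gene of progenitors, was low at 6.70, 1.64 and 1.32 CPM in GCPB+ cells, against 0.643, 0 and 0.377 CPM in CTX cells (3.21 ± 0.74), and GCPB+ replicate 1 was by far its highest library. The 2 lower genes were the Notch effector gene Hes1 (-1.28 ± 0.27) and Lrig1, a negative regulator of EGFR signalling (-0.80 ± 0.22). The calls were lost for Nes without GCPB+ replicate 1 or CTX replicate 3 (adjusted p = 0.065 to 0.0787), Hes1 without GCPB+ replicate 3 or CTX replicate 1 (adjusted p = 0.0517 to 0.052) and Lrig1 without GCPB+ replicate 1, 2 or 3 or CTX replicate 1, 2 or 3 (adjusted p = 0.0556 to 0.16). Nes was also not called in a fit of the 6 libraries alone (adjusted p = 0.0599). Nor was it with limma on log2(FPKM + 1) (adjusted p = 0.345), on log2(FPKM + 0.1) (0.0524) and on log2(FPKM + 1) of all genes (0.443).

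Several genes widely used to mark stem cells were present in cortical astrocytes as well. Sox2, a transcription factor gene of neural stem cells, had 176, 142 and 126 CPM in GCPB+ cells, against 171, 155 and 199.6 CPM in CTX cells (adjusted p = 0.622). Nr2e1, the TLX nuclear receptor gene of neural stem cells, had 474, 279 and 183 CPM in GCPB+ cells, against 304, 248 and 247 CPM in CTX cells (adjusted p = 0.751). Vcam1, an adhesion gene of quiescent stem cells, had 883, 1097 and 1307 CPM in GCPB+ cells, against 991, 758 and 798 CPM in CTX cells (adjusted p = 0.32). None of the 3 was called and each had overlapping groups. The glial transcription factor gene Sox9 and the Notch target gene Hes5 ranged widely within GCPB+ cells, at 1931, 1025 and 733 CPM and 1938, 409 and 276 CPM, replicate 1 being the highest, beside 1432, 1144 and 839.6 CPM and 1468, 613 and 672 CPM in CTX cells, and neither was called (adjusted p = 0.9 and 0.975).

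Of 40 astrocyte genes, 4 were higher and 7 lower (median 0.17), beside 4.18% and 2.55% of all genes. The summed level of the list was 119150.0 to 135830.0 CPM in GCPB+ libraries and 96102 to 127002 CPM in CTX libraries. Defining genes were not called: the glutamate transporter gene Slc1a3 had 10697, 12779.8 and 13128 CPM in GCPB+ cells, against 12136, 10133 and 10869.8 CPM in CTX cells, and the water channel gene Aqp4 had 1420.4, 1722 and 1988 CPM in GCPB+ cells, against 1171, 1233 and 1451 CPM in CTX cells. Both populations thus carried the defining astrocyte genes that their labels call for. The largest fall of the list was that of Chrdl1, a secreted BMP antagonist gene that cortical astrocytes express, with 12.5, 45.6 and 47.8 CPM in GCPB+ cells, against 618, 465 and 775 CPM in CTX cells (-4.14 ± 0.48, adjusted p = 4.74e-05). GCPB+ replicate 1 was the lowest of the 6 libraries. Kcnj16, an inward rectifier channel gene, had 14.5, 21.5 and 35.2 CPM in GCPB+ cells, against 292, 321 and 279 CPM in CTX cells (-3.65 ± 0.45, adjusted p = 0.000101). Grin2c, an NMDA receptor subunit gene of astrocytes, had 95.7, 30.2 and 36.5 CPM in GCPB+ cells, against 157, 161 and 188 CPM in CTX cells (-1.64 ± 0.35, adjusted p = 0.00755). All 3 falls were without overlap. Among the rises, Mlc1, a membrane protein gene of astrocyte endfeet, averaged 2205 ± 109 CPM in GCPB+ cells and 1189 ± 257 CPM in CTX cells (0.89 ± 0.17), and Agt, the angiotensinogen gene, 209 ± 33.6 CPM and 57.5 ± 23.8 CPM in the same order (1.86 ± 0.44). The call was lost for Agt without GCPB+ replicate 2 or CTX replicate 3 (adjusted p = 0.0527 to 0.0858). The number of astrocyte genes called higher was 1 without GCPB+ replicate 2 or CTX replicate 3 and 2 without GCPB+ replicate 3 or CTX replicate 2, and that called lower 4 without GCPB+ replicate 2. DESeq2 did not call Grin2c (adjusted p = 0.387), Mlc1 (0.125) or Agt (0.46), so that it called 0 astrocyte genes higher and 2 lower.

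Beside the 5 sorting genes, of which 3 were higher, cell cycle genes were the list with the highest share of members called higher, but at low levels. Of 38, 18 were higher and none lower in GCPB+ cells (median 1.43), beside 4.18% and 2.55% of all genes. The summed level of the list was 294, 333 and 321 CPM in GCPB+ libraries, against 190.4, 181 and 157 CPM in CTX libraries. Mki67, the proliferation antigen gene, had 7.59, 5.33 and 4.64 CPM in GCPB+ cells, against 0.286, 0.767 and 0.167 CPM in CTX cells (3.99 ± 0.61, adjusted p = 0.000631). For scale, the EGFR-positive GCEPB+ cells of the same study averaged 366 CPM. Cdk1, the mitotic kinase gene, had 2.47, 0.819 and 2.92 CPM in GCPB+ cells, against 0, 0.153 and 0.126 CPM in CTX cells (ratio 24.1, 95% counting interval 10.1 to 75.2). Bub1, a kinase gene of the spindle checkpoint, had 0.295, 0.246 and 1.53 CPM in GCPB+ cells, against 0.0715, 0 and 0 CPM in CTX cells (4.89 ± 1.28, adjusted p = 0.0296). All GCPB+ libraries were above all CTX libraries for these 3 genes, as for 20 of the 38 and for 14.8% of all genes. The 3 were picked from called members, and Bub1 separated at the floor (0.246 against 0.0715 CPM). With limma on log2(FPKM + 1), the adjusted p was 0.121 for Mki67, 0.166 for Cdk1 and 0.639 for Bub1, and the calls were lost for Bub1 without GCPB+ replicate 3 or CTX replicate 1, 2 or 3 (adjusted p = 0.0674 to 0.189). The number called was 10 without CTX replicate 3, 9 in a fit of the 6 libraries alone, and 6 and 3 with limma on log2(FPKM + 1) with and without a filter.

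Genes of activation moved in both directions, 4 up and 4 down of 20 tested (median 0.32), beside 4.18% and 2.55% of all genes. The rises included Dlx2, Mycn and Dll1. Mycn, a growth-promoting transcription factor gene, had 18.3, 8.60 and 4.47 CPM in GCPB+ cells, against 0, 0.998 and 0.126 CPM in CTX cells (4.98 ± 0.87, adjusted p = 0.0021), and GCPB+ replicate 1 was its highest library. The falls were Ccnd1, Nrarp, Olig1 and Olig2. Ccnd1, which encodes the G1 cyclin D1, had 2.03, 6.55 and 5.29 CPM in GCPB+ cells, against 63.5, 41.1 and 45.7 CPM in CTX cells (-3.46 ± 0.43, adjusted p = 0.000105), the opposite direction from the mitotic genes. The groups did not overlap in either gene. When a library was left out, calls were lost for Dll1 without GCPB+ replicate 1 or 2 or CTX replicate 1 or 3 (adjusted p = 0.0588 to 0.148) and Nrarp without GCPB+ replicate 2 or 3 or CTX replicate 1 or 3 (adjusted p = 0.0803 to 0.122), and limma on log2(FPKM + 1) of all genes did not call Mycn (adjusted p = 0.0663).

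Of the markers of other cells that the gates could hold, those of microglia, endothelial cells and pericytes were called no more often than all genes (6.72%), and most of the other lists, given below or above, were called more often. Of 13 microglia genes, 18 endothelial genes and 10 pericyte and smooth muscle genes, 0, 1 and 0 were called. Of the defining microglia genes, Trem2 was at 0 in all 6 libraries and C1qa had 0, 0 and 0.0678 CPM in GCPB+ cells, against 0.0715, 0 and 0 CPM in CTX cells, and the endothelial gene Pecam1 had 0, 0 and 0.102 CPM in GCPB+ cells, against 0.143, 0.384 and 2.51 CPM in CTX cells. The 1 endothelial call was Pltp, a lipid transfer protein gene, with 112, 134 and 114 CPM in GCPB+ cells, against 17.4, 27.3 and 12.4 CPM in CTX cells (2.66 ± 0.30, adjusted p = 3.1e-05), while Pecam1 stayed near the floor in GCPB+ cells. Of 7 meningeal fibroblast genes, Ptgds was higher (1.42 ± 0.40, adjusted p = 0.0427) and Pdgfra lower, and the call was lost for Ptgds without GCPB+ replicate 1 or 2 or CTX replicate 1 or 3 (adjusted p = 0.0641 to 0.13). Microglia genes summed to 65.9 to 119.9 CPM in GCPB+ libraries and 83.3 to 102 CPM in CTX libraries, endothelial genes to 941 to 1027 CPM and 876 to 1050.2 CPM, and pericyte and smooth muscle genes to 76.8 to 96.8 CPM and 77.7 to 112 CPM, in the same order.

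Of 30 ependymal and motile cilia genes, 7 were higher and none lower (median 2.26), beside 4.18% and 2.55% of all genes. All 30 had a positive log2 fold change, beside 8058 of the 16302 genes tested. For 19 of them every GCPB+ library was above every CTX library, beside 14.8% of all genes. The summed level of the list was 287 to 303 CPM in GCPB+ libraries and 120.2 to 153 CPM in CTX libraries. The 7 were the ciliary transcription factor genes Rfx2 and Rfx3 and the axonemal or motor genes Dnaic1, Tekt1, Rsph1, Cfap44 and Kif9. Tekt1, a gene of the axonemal microtubules, had 9.54, 10.2 and 11.1 CPM in GCPB+ cells, against 3.15, 0.691 and 2.60 CPM in CTX cells (2.25 ± 0.47, adjusted p = 0.00678). Rsph1, a radial spoke gene, had 6.74, 3.28 and 4.10 CPM in GCPB+ cells, against 0, 0.691 and 1.005 CPM in CTX cells (2.996 ± 0.78, adjusted p = 0.0276). Both were higher in every GCPB+ library than in any CTX library. The defining regulator of motile cilia, Foxj1, was low and not called, at 10.3, 1.39 and 3.46 CPM in GCPB+ cells, against 1.93, 0.537 and 1.13 CPM in CTX cells (2.08 ± 0.69, adjusted p = 0.0885), and 4 genes of the list were at 0 in CTX cells (Tmem212, Ak7, Pifo and Tctex1d4). The part of ependymal RNA in the other differences was not tested. Of 30 primary cilium genes, 3 transport genes were higher (Ift80, Ift122 and Ift172) and none lower. The number of ependymal genes called was 3 without GCPB+ replicate 3 or CTX replicate 1 or 2 and 4 without GCPB+ replicate 1. Calls were lost for Rsph1 without GCPB+ replicate 1 or 3 or CTX replicate 1 or 2 (adjusted p = 0.0511 to 0.0806), Cfap44 without GCPB+ replicate 1, 2 or 3 or CTX replicate 1, 2 or 3 (adjusted p = 0.0559 to 0.15), Kif9 without GCPB+ replicate 1, 2 or 3 or CTX replicate 1 or 2 (adjusted p = 0.0638 to 0.112), Ift80 without GCPB+ replicate 2 or 3 or CTX replicate 1, 2 or 3 (adjusted p = 0.052 to 0.152), Ift122 without GCPB+ replicate 2 or CTX replicate 2 or 3 (adjusted p = 0.0559 to 0.104) and Ift172 without GCPB+ replicate 2 or 3 or CTX replicate 1, 2 or 3 (adjusted p = 0.0679 to 0.133).

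**Figure D5:**
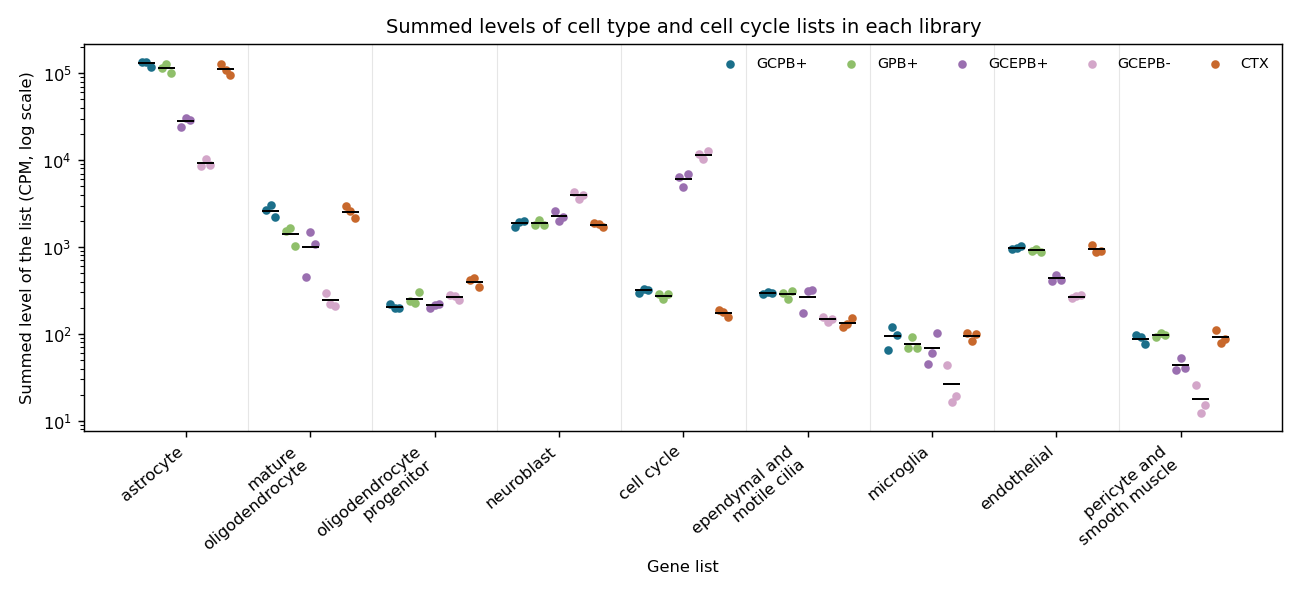
Summed level of 9 marker lists in each library of the 5 sorted populations (CPM, log scale). Points are libraries, 3 per population with replicates 1 to 3 from left to right, and bars are means. GCPB+ cells (blue) and CTX cells (orange) lie at like levels for astrocyte, microglia, endothelial and pericyte genes. GCPB+ cells are above CTX cells for cell cycle and ependymal genes. They are below them in the sum of oligodendrocyte progenitor genes, where much of the gap is Olig1. The EGFR-positive populations are far higher in cell cycle genes.

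Of 20 mature oligodendrocyte genes, 4 were higher and 1 lower (median 2.54), beside 4.18% and 2.55% of all genes. Beside 8058 of the 16302 genes tested, 18 of these 20 had a positive log2 fold change. Their summed level was 2667, 3017 and 2194 CPM in GCPB+ libraries, against 2957, 2592 and 2130.0 CPM in CTX libraries, and their part in other differences was not tested. Much of this sum was Car2, the 1 lower gene, with 682, 696 and 497 CPM in GCPB+ cells, against 1907, 1861 and 1697 CPM in CTX cells (-1.54 ± 0.44, adjusted p = 0.0452). Without Car2, left out after the values were seen, the other 19 genes summed to 1985, 2321 and 1697 CPM in GCPB+ libraries, against 1049.8, 731 and 433 CPM in CTX libraries. Mbp, which encodes myelin basic protein, had 177, 173 and 132 CPM in GCPB+ cells, against 27.8, 22.1 and 4.02 CPM in CTX cells (3.17 ± 0.78, adjusted p = 0.0201). CTX replicate 3 was by far the lowest for Mbp, while the GCPB+ libraries were alike. Car2 is expressed by oligodendrocytes and astrocytes. The number of genes called higher was 0 without GCPB+ replicate 2 or CTX replicate 3 and 1 without GCPB+ replicate 3 or CTX replicate 2, and 10 in a fit of the 6 libraries alone. The call was lost for Mbp without GCPB+ replicate 2 or CTX replicate 2 or 3 (adjusted p = 0.0552 to 0.0795) and Car2 without GCPB+ replicate 1, 2 or 3 or CTX replicate 1, 2 or 3 (adjusted p = 0.0827 to 0.157).

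Oligodendrocyte progenitor genes ran the other way, with none of 19 higher and 3 lower (median -0.53), beside 4.18% and 2.55% of all genes. Their list summed to 219, 199 and 199 CPM in GCPB+ libraries, against 416, 436 and 344 CPM in CTX libraries. Much of the gap between these sums was Olig1, and sums without Olig1 were not computed. Olig1 had 55.6, 17.8 and 9.73 CPM in GCPB+ cells, against 237, 171 and 156 CPM in CTX cells (-2.76 ± 0.53, adjusted p = 0.00392). Olig2 had 3.17, 0.983 and 1.15 CPM in GCPB+ cells, against 18.4, 16.6 and 21.2 CPM in CTX cells (-3.37 ± 0.60, adjusted p = 0.0023). These lineage regulators were evenly high over the CTX libraries. Pdgfra, the growth factor receptor of oligodendrocyte progenitors, had 0.0368, 0.0819 and 0 CPM in GCPB+ cells, against 4.22, 21.4 and 2.51 CPM in CTX cells, from 2 and 398 counts (ratio 269 for CTX over GCPB+, 95% counting interval 74.0 to 2230.1). CTX replicate 2 was the highest for Pdgfra and also for the progenitor genes Gpr17 (0, 0 and 0.610 CPM in GCPB+ cells, against 4.07, 25.6 and 0.837 CPM in CTX cells) and Neu4 (0, 0 and 0.0339 CPM in GCPB+ cells, against 0.643, 3.53 and 1.13 CPM in CTX cells), and their part in the 3 falls was not tested. Sox10, which the whole lineage expresses, was low in both (5.23, 2.54 and 0.305 CPM in GCPB+ cells, against 2.43, 3.76 and 0.167 CPM in CTX cells).

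Of 24 neuroblast genes, 8 were higher and 2 lower (median 1.26), beside 4.18% and 2.55% of all genes. The list summed to 1698 to 1969 CPM in GCPB+ libraries and 1683 to 1897 CPM in CTX libraries. Map1b, a microtubule-associated protein gene of growing neurites, had 25.6, 15.98 and 16.2 CPM in GCPB+ cells, against 1.14, 3.22 and 0.377 CPM in CTX cells (3.72 ± 0.45, adjusted p = 7.42e-05). Tubb3, a tubulin gene of young neurons, had 9.50, 0.574 and 3.29 CPM in GCPB+ cells, against 0.500, 0 and 0.0837 CPM in CTX cells (4.62 ± 0.86, adjusted p = 0.00328). Map1b was higher in every GCPB+ library. For Tubb3, GCPB+ replicate 2 (0.574 CPM) was about level with CTX replicate 1 (0.500 CPM). The defining neuroblast gene Dcx did not pass (2.47, 1.07 and 0.407 CPM in GCPB+ cells, against 0.214, 0.460 and 0.377 CPM in CTX cells, adjusted p = 0.133). The lower genes were Sox4 (-1.53 ± 0.32), a transcription factor gene of differentiating cells, and Elavl4 (-2.10 ± 0.59), a neuronal RNA-binding protein gene, and the call was lost for Elavl4 without GCPB+ replicate 2 or 3 or CTX replicate 1, 2 or 3 (adjusted p = 0.0559 to 0.167). The number called higher was 5 with limma on log2(FPKM + 1). Sox4 was not called in a fit of the 6 libraries alone (adjusted p = 0.0525). With limma on log2(FPKM + 1) of all genes, Sox4 (adjusted p = 0.0726) and Tubb3 (0.0935) were not called. Of 13 mature neuron genes, Meg3 and Stmn3 were higher, and the neuronal nuclear antigen gene Rbfox3 stayed at the floor, with 0.110, 0.164 and 0.136 CPM in GCPB+ cells, against 0.143, 0.0767 and 0 CPM in CTX cells.

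Signalling pathways had calls in both directions. In the Notch pathway, which keeps stem cells quiescent, 3 of 22 genes were higher and 4 lower, beside 4.18% and 2.55% of all genes. The receptors Notch1 (0.79 ± 0.22) and Notch2 (1.12 ± 0.25) and the ligand Dll1 rose, while the ligands Jag1 and Dner and the targets Hes1 and Nrarp fell. Jag1 had 27.5, 25.3 and 15.8 CPM in GCPB+ cells, against 60.7, 68.4 and 88.2 CPM in CTX cells (-1.67 ± 0.26, adjusted p = 0.000947). Dner had 69.2, 38.1 and 31.1 CPM in GCPB+ cells, against 268, 236 and 234 CPM in CTX cells (-2.41 ± 0.34, adjusted p = 0.000324). Both ligand genes were lower in every GCPB+ library. The calls were lost for Notch1 without GCPB+ replicate 1, 2 or 3 or CTX replicate 1, 2 or 3 (adjusted p = 0.0507 to 0.176), Notch2 without GCPB+ replicate 3 or CTX replicate 1 (adjusted p = 0.0519), Dll1 without GCPB+ replicate 1 or 2 or CTX replicate 1 or 3 (adjusted p = 0.0588 to 0.148), Hes1 without GCPB+ replicate 3 or CTX replicate 1 (adjusted p = 0.0517 to 0.052) and Nrarp without GCPB+ replicate 2 or 3 or CTX replicate 1 or 3 (adjusted p = 0.0803 to 0.122).

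Among 31 Wnt pathway genes, 4 were higher and 5 lower (median -0.03), beside 4.18% and 2.55% of all genes. The secreted antagonist gene Sfrp5 had 63.2, 51.5 and 31.3 CPM in GCPB+ cells, against 5.50, 6.37 and 2.39 CPM in CTX cells (3.37 ± 0.55, adjusted p = 0.00118). The receptor gene Fzd3 had 72.0, 67.8 and 74.9 CPM in GCPB+ cells, against 26.4, 24.3 and 40.4 CPM in CTX cells (1.23 ± 0.23, adjusted p = 0.00358), and Fzd1 22.9, 15.98 and 15.999 CPM in GCPB+ cells, against 53.9, 57.6 and 62.2 CPM in CTX cells (-1.66 ± 0.24, adjusted p = 0.000481). Frizzled genes thus moved in both directions, with Fzd3 and Fzd5 higher and Fzd1 and Fzd9 lower. The target gene Axin2 had 14.6, 20.7 and 12.1 CPM in GCPB+ cells, against 22.2, 24.1 and 15.1 CPM in CTX cells and was not called (adjusted p = 0.454). The call was lost for Fzd5 without CTX replicate 1 or 3 (adjusted p = 0.0511 to 0.0575). Fzd5 was also not called with limma on log2(FPKM + 1) (adjusted p = 0.112), on log2(FPKM + 0.1) (0.0665) and on log2(FPKM + 1) of all genes (0.184).

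Of 28 BMP and TGF-beta genes, 4 were higher and 4 lower, beside 4.18% and 2.55% of all genes. The ligand gene Bmp6 had 30.9, 24.3 and 22.3 CPM in GCPB+ cells, against 5.36, 4.604 and 4.48 CPM in CTX cells (2.42 ± 0.45, adjusted p = 0.00328). The ligand gene Bmp7 had 38.7, 27.1 and 18.9 CPM in GCPB+ cells, against 107, 81.0 and 81.2 CPM in CTX cells (-1.67 ± 0.36, adjusted p = 0.00847). These ligands moved in opposite directions without overlap. The targets Id1, Id2, Id3 and Id4 were not called (log2 fold changes 0.46, 0.34, 0.39 and -0.54). The number of genes called higher was 2 without GCPB+ replicate 1 or CTX replicate 3, and that called lower 1 without GCPB+ replicate 3 and 2 without GCPB+ replicate 2 or CTX replicate 2. The call was lost for Bmp7 without GCPB+ replicate 3 (adjusted p = 0.0537), and DESeq2 did not call Bmp6 (adjusted p = 0.388).

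Of 15 hedgehog genes, none was higher and the ligand-binding genes Hhip and Gas1 were lower, beside 4.18% and 2.55% of all genes. Hhip, a decoy receptor gene, had 4.35, 1.47 and 2.07 CPM in GCPB+ cells, against 32.0, 53.3 and 19.1 CPM in CTX cells (-3.70 ± 0.84, adjusted p = 0.0122). The target genes Gli1 (19.9, 19.4 and 13.5 CPM in GCPB+ cells, against 25.2, 38.4 and 20.6 CPM in CTX cells) and Ptch1 (139.8, 177 and 167 CPM in GCPB+ cells, against 111, 178 and 126 CPM in CTX cells) were not called. When a library was left out, calls were lost for Hhip without GCPB+ replicate 2 or 3 or CTX replicate 2 (adjusted p = 0.0604 to 0.0692) and Gas1 without GCPB+ replicate 3 or CTX replicate 3 (adjusted p = 0.0677 to 0.0714).

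Of 41 genes of growth factors with tyrosine kinase receptors, 3 were higher and 5 lower (median -0.45), beside 4.18% and 2.55% of all genes. The feedback inhibitor gene Spry1 had 0.147, 0 and 0 CPM in GCPB+ cells, against 10.9, 18.6 and 5.32 CPM in CTX cells (-7.53 ± 1.49, adjusted p = 0.00504). Etv4, a transcription factor gene induced by FGF signalling, had 53.4, 32.6 and 37.0 CPM in GCPB+ cells, against 186, 169.7 and 134 CPM in CTX cells (-1.99 ± 0.29, adjusted p = 0.00039). Igfbp5 had 29.6, 73.7 and 83.5 CPM in GCPB+ cells, against 10.01, 10.1 and 6.86 CPM in CTX cells (2.80 ± 0.36, adjusted p = 0.000138). Igfbp5 rose where its relative Igfbp2 fell, and Igf1r, the receptor gene of the same growth factors, rose to 74.3 ± 26.5 CPM, against 34.7 ± 2.32 CPM in CTX cells (1.09 ± 0.23). The call was lost for Igf1r without GCPB+ replicate 2 (adjusted p = 0.0599).

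Of 35 guidance genes, 7 were higher and 3 lower (median 0.51), beside 4.18% and 2.55% of all genes. Slit2, a repellent of migrating neuroblasts, had 4.94, 1.72 and 2.81 CPM in GCPB+ cells, against 0.0715, 0 and 0.0837 CPM in CTX cells, from 238 and 3 counts (ratio 58.7, 95% counting interval 19.8 to 286). The receptor gene Epha3 had 0.884, 3.93 and 6.34 CPM in GCPB+ cells, against 0, 0 and 0.0837 CPM in CTX cells, from 259 and 2 counts (ratio 95.8, 95% counting interval 26.2 to 795). Ephb2 had 5.71, 6.23 and 1.32 CPM in GCPB+ cells, against 0.357, 0.307 and 0.712 CPM in CTX cells (3.17 ± 0.65, adjusted p = 0.00633). The CTX libraries were near the floor for Slit2 and Epha3 and held 5, 4 and 17 counts of Ephb2, and the GCPB+ libraries varied several-fold. The semaphorin receptor gene Nrp2 had 0.884, 0.819 and 0.847 CPM in GCPB+ cells, against 9.44, 7.90 and 9.84 CPM in CTX cells (-3.40 ± 0.58, adjusted p = 0.00167), and the ephrin gene Efna5 changed by -1.15 ± 0.23. With limma on log2(FPKM + 1), the adjusted p was 0.166 for Slit2, 0.117 for Epha3 and 0.218 for Ephb2.

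Of 42 extracellular matrix genes, 5 were higher (Thbs4, Sparc, Tnc, Fbln2 and Fbln5) and 1 lower (Agrn), beside 4.18% and 2.55% of all genes. The number of matrix genes called higher was 3 without GCPB+ replicate 2 or 3 or CTX replicate 2. Among 30 genes of glutamate and GABA handling, 2 were higher and 6 lower. The glycine transporter gene Slc6a9 had 592, 667 and 554 CPM in GCPB+ cells, against 64.8, 95.4 and 32.3 CPM in CTX cells (3.24 ± 0.30, adjusted p = 5.49e-06). The AMPA receptor subunit gene Gria2 had 218, 227 and 312 CPM in GCPB+ cells, against 612, 827 and 997 CPM in CTX cells (-1.69 ± 0.27, adjusted p = 0.000916). Neither overlapped between groups. Of 29 channel genes, the potassium channel subunit gene Kcne1l rose (117, 75.1 and 82.8 CPM in GCPB+ cells, against 8.86, 3.22 and 4.81 CPM in CTX cells, 4.03 ± 0.36) and the chloride channel gene Clcn2 fell (-1.54 ± 0.29), beside Kcna6, Kcnj16 and Gjb6. Calls were lost for Fbln5 without GCPB+ replicate 1, 2 or 3 or CTX replicate 1 or 2 (adjusted p = 0.0652 to 0.158), Agrn without GCPB+ replicate 2 or 3 or CTX replicate 1, 2 or 3 (adjusted p = 0.0519 to 0.166) and Kcna6 without GCPB+ replicate 2 or 3 or CTX replicate 1, 2 or 3 (adjusted p = 0.0618 to 0.126), and the number of glutamate and GABA genes called lower was 2 without GCPB+ replicate 2 or 3 or CTX replicate 1 and 3 without CTX replicate 2 or 3.

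Metabolic and housekeeping lists held between 0 and 5 calls each, against 6.72% of all genes in either direction, and the cholesterol list held the most. Of 28 glycolysis genes 1 was lower, the lactate dehydrogenase gene Ldha, with 325, 291 and 311 CPM in GCPB+ cells, against 627, 525 and 516 CPM in CTX cells (-0.85 ± 0.16, adjusted p = 0.00325). Its partner gene Ldhb had 2278, 2613 and 2269 CPM in GCPB+ cells, against 2164, 1683 and 1641 CPM in CTX cells and was not called (adjusted p = 0.165). Of 28 fatty acid oxidation genes, Hadha (0.84 ± 0.18) and Echs1 (0.53 ± 0.14) were higher, and none of 26 oxidative phosphorylation genes was called. Of 34 genes of cholesterol synthesis and lipoproteins, the desaturase gene Scd2 and the sterol exporter genes Abca1 and Abcg1 were higher, and Insig1, an inhibitor of sterol synthesis, was lower (-0.90 ± 0.17, adjusted p = 0.00384), as was Lcat. Ribosomal protein genes had a median of 0.38, and 27 of 28 had a positive log2 fold change, beside 8058 of the 16302 genes tested. Of the 28, 1 was called (Rplp1). Of 25 lysosomal genes, Ppt1 was higher (0.68 ± 0.18) and Lamp1 lower (-0.94 ± 0.26). The calls were lost for Echs1 without GCPB+ replicate 1, 2 or 3 or CTX replicate 1, 2 or 3 (adjusted p = 0.0537 to 0.155), Abca1 without GCPB+ replicate 2 or 3 or CTX replicate 1, 2 or 3 (adjusted p = 0.0553 to 0.183), Abcg1 without GCPB+ replicate 2 or CTX replicate 1 (adjusted p = 0.0675 to 0.0793), Lcat without GCPB+ replicate 2 or 3 or CTX replicate 1, 2 or 3 (adjusted p = 0.0533 to 0.0951), Rplp1 without GCPB+ replicate 1, 2 or 3 or CTX replicate 1, 2 or 3 (adjusted p = 0.0765 to 0.17), Ppt1 without GCPB+ replicate 2 or 3 or CTX replicate 1, 2 or 3 (adjusted p = 0.0522 to 0.175) and Lamp1 without GCPB+ replicate 2 or 3 or CTX replicate 1 or 3 (adjusted p = 0.114 to 0.152).

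Of 26 interferon and MHC class I genes, 5 were higher and none lower (median 0.23), beside 4.18% and 2.55% of all genes. H2-D1, a class I heavy chain gene, had 156, 152 and 129.6 CPM in GCPB+ cells, against 78.9, 48.8 and 46.3 CPM in CTX cells (1.33 ± 0.27, adjusted p = 0.00577). Tapbp, which loads peptides onto class I molecules, had 122, 127 and 108 CPM in GCPB+ cells, against 67.6, 52.6 and 55.0 CPM in CTX cells (1.02 ± 0.17, adjusted p = 0.00142). B2m, the class I light chain gene, C4b and the complement inhibitor gene Serping1 made up the 5. Interferon-induced genes such as Isg15 (2.14, 2.46 and 1.59 CPM in GCPB+ cells, against 1.72, 2.76 and 0.837 CPM in CTX cells) were low and not called. The class I genes of the H2 family share sequence, so that the counts of H2-D1 are uncertain.

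Retinoid and thyroid hormone genes were higher for 5 and lower for 2 of 18, beside 4.18% and 2.55% of all genes. Crym, described above, was among those higher. The thyroid hormone transporter gene Slco1c1 fell, as given above, and the deiodinase gene Dio2 had 176, 283 and 491 CPM in GCPB+ cells, against 406, 655 and 775 CPM in CTX cells without a call (adjusted p = 0.139). The retinoic acid receptor genes Rarb and Rara were higher (1.38 ± 0.37) and lower (-1.27 ± 0.36), but their calls depended on single libraries, as for Rarb without GCPB+ replicate 1 or 3 or CTX replicate 1 or 2 (adjusted p = 0.0701 to 0.152), Rara without GCPB+ replicate 2 or 3 or CTX replicate 1, 2 or 3 (adjusted p = 0.0698 to 0.176) and Slco1c1 without GCPB+ replicate 2 or CTX replicate 1 or 3 (adjusted p = 0.0753 to 0.109). The number called higher was 3 without GCPB+ replicate 3 or CTX replicate 2.

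Of 52 transcription factors of glia and stem cells, some of them also in lists above, 3 were higher and 4 lower. Of all genes, 4.18% were higher and 2.55% lower. Nfia, a glial factor gene, had 1098, 1186 and 1022 CPM in GCPB+ cells, against 640.3, 711 and 815 CPM in CTX cells (0.61 ± 0.13, adjusted p = 0.00869). Bcl11a, a zinc finger gene known from neurons, had 3.68, 2.87 and 1.80 CPM in GCPB+ cells, against 0.715, 0.460 and 0.712 CPM in CTX cells (2.11 ± 0.37, adjusted p = 0.00209). Neither overlapped between groups, and Bcl11b was the other rise. The falls were Hes1, Lhx2, Emx2 and Etv4, each already counted in a list above. The number called lower was 2 without GCPB+ replicate 3 or CTX replicate 1, and limma on log2(FPKM + 1) did not call Bcl11a (adjusted p = 0.204). When a library was left out, calls were lost for Bcl11b without GCPB+ replicate 1 or 2 or CTX replicate 2 or 3 (adjusted p = 0.0511 to 0.139), Hes1 without GCPB+ replicate 3 or CTX replicate 1 (adjusted p = 0.0517 to 0.052) and Lhx2 without GCPB+ replicate 2 or 3 or CTX replicate 1 or 3 (adjusted p = 0.0764 to 0.149).

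Immediate early genes, which respond within minutes to stimulation and to cell handling, were higher for 1 and lower for 6 of 22 (median -1.09). Of all genes, 4.18% were higher and 2.55% lower. Ier2 had 1.66, 0.983 and 2.34 CPM in GCPB+ cells, against 12.2, 7.21 and 10.97 CPM in CTX cells (-2.56 ± 0.35, adjusted p = 0.000259). Dusp1 had 57.6, 24.6 and 23.3 CPM in GCPB+ cells, against 134, 239.6 and 272 CPM in CTX cells (-2.61 ± 0.46, adjusted p = 0.00227). Both were lower in every GCPB+ library. Nr4a1 had 14.5, 14.4 and 23.5 CPM in GCPB+ cells, against 35.3, 325 and 53.8 CPM in CTX cells, and Junb 5.71, 3.44 and 2.47 CPM in GCPB+ cells, against 7.08, 76.3 and 7.53 CPM in CTX cells, so that CTX replicate 2 held most of both. The number called lower was 3 without GCPB+ replicate 2 or CTX replicate 2, and the calls were lost for Nr4a1 without GCPB+ replicate 2 or CTX replicate 2 (adjusted p = 0.0665 to 0.137) and Junb without GCPB+ replicate 2 or 3 or CTX replicate 2 (adjusted p = 0.124 to 0.464). The summed level of the list was 664, 519.5 and 552 CPM in GCPB+ libraries, against 727, 1219 and 796 CPM in CTX libraries.

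Few genes were called between GCPB+ cells and GPB+ cells, the V-SVZ cells without CD133. In the fit without a block, 4 of the 16302 genes were higher (0.0245%) and 1 lower (0.00613%) in GCPB+ than in GPB+ cells, or 0.0307% in either direction. The rise was over 2-fold for 3 of them (0.0184%), and 1160 (7.12%) had an unadjusted p under 0.05. Prom1 had 139, 181 and 138 CPM in GCPB+ cells, against 26.7, 34.5 and 24.0 CPM in GPB+ cells (2.43 ± 0.30, adjusted p = 0.00611). Prom1 encodes the antigen that divided the populations in the sort, so that this difference describes the gate. Tagln3, a neuronal cytoskeletal gene, had 167, 186 and 154 CPM in GCPB+ cells, against 93.5, 86.0 and 74.5 CPM in GPB+ cells (0.99 ± 0.15, adjusted p = 0.0371), and 425, 436 and 423 CPM in CTX cells. Its GCPB+ values thus lay between those of the other populations. Plxna2, Bid and Pdgfra were called as well and chosen for mention after their values were seen. Plxna2, a semaphorin receptor gene, had 6.30, 6.39 and 7.15 CPM in GCPB+ cells, against 1.80, 2.16 and 2.43 CPM in GPB+ cells (1.63 ± 0.26), and Bid, an apoptosis gene, 1.36, 2.70 and 1.08 CPM in GCPB+ cells, against no count in GPB+ cells. Pdgfra had 0.0368, 0.0819 and 0 CPM in GCPB+ cells, against 4.06, 6.05 and 17.8 CPM in GPB+ cells (adjusted p = 0.0381). With the replicate number as a block, Prom1 (adjusted p = 0.0140) and Tagln3 (0.0285) were called, but Plxna2, Bid and Pdgfra were not. DESeq2 called 13 genes higher and 6 lower, and calls depended on single libraries, as for Prom1 without GPB+ replicate 3 (adjusted p = 0.0542) and Tagln3 without GCPB+ replicate 1, 2 or 3 or GPB+ replicate 1, 2 or 3 (adjusted p = 0.0778 to 0.197).

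Both V-SVZ populations are compared with the same CTX libraries, so that their changes are given side by side without a test of likeness. Thbs4 changed by 10.25 in GCPB+ cells and by 10.11 in GPB+ cells over CTX cells, Six3 by 6.85 and 7.45, and Sparc by 4.09 and 3.81, in the same order. Igfbp2 changed by -9.71 in GCPB+ cells and -8.81 in GPB+ cells, Zic2 by -4.80 and -6.13, and Chrdl1 by -4.14 and -4.20. Prom1 itself changed by 1.45 in GCPB+ cells and by -0.98 in GPB+ cells, where the change was not called (adjusted p = 0.052).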

How the data were processed

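RNA of sorted cells was amplified from poly(A) with the SMARTer Ultra Low kit, cut into libraries with a transposase and sequenced as paired ends, per the labels' protocols. Reads were trimmed with cutadapt, aligned to mm10 with TopHat2 2.1 and counted with HTSeq, with FPKM from Cufflinks, per the submitters' processing notes. The values deposited were, for each gene symbol, a whole-number count and an FPKM per library. In the FPKM table the headers of symbol and position are exchanged, and starts count from 0 for most genes, so that 1 was added to starts printed here. Of 32763 rows, 28 with symbols turned into dates or unknown were left out, which held 0.201 to 0.255% of the counts.

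Counts of all 15 libraries were fitted together with edgeR 4.0.16 (R 4.3.3, TMM factors 0.825 to 0.959 in the 6 libraries, filterByExpr, quasi-likelihood test, no covariates), and 16302 genes were tested. Ratios of genes near 0 carry exact 95% counting intervals. Replicates of a group differed by far more than counting noise (chi-square of 26.7 to 104 per gene). Alternatives were DESeq2 1.42.0, limma 3.58.1 on log2(FPKM + 1) and log2(FPKM + 0.1), other scalings and filters, the libraries of the compared groups alone, a replicate block and each library left out. The scripts were tested on simulated data. The members and gene lists were chosen with earlier results of these data known.

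The 37 lists hold 922 genes, 919 of them in the table. Named genes were the sorting and marker genes, the 12 largest rises and falls and the 6 largest gains and losses in CPM among called genes without overlap and with a mean of at least 20 CPM, up to 4 called members of each list and direction, and list members that bear on its description. Same-numbered GCPB+ and GPB+ libraries deviated together (correlations of 0.155, 0.116 and 0.234), a hint of pairing that comes from the data and not from the labels. For GCPB+ and CTX libraries these correlations were 0.107, 0.042 and 0.160. The main fit paired no libraries in either comparison, and the replicate number served as a block only in an alternative. Promoters came from RefSeq (GRCm38.p6). Some genes of the lists are not reported here by name, but their values stay in the counts and sums.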

Additional observations from a re-analysis of the deposited data

Results flagged for a closer look

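The 5 genes called between GCPB+ and GPB+ cells, sorted alike but for CD133, are listed here because they changed differently in the populations relative to the CTX libraries that both share, and the test of that difference is the direct comparison of GCPB+ with GPB+ cells. With the replicate number as a block, Prom1 and Tagln3 kept their calls and Bid, Pdgfra and Plxna2 lost them. Prom1 was higher in GCPB+ cells by 2.43 on the log2 scale, and its RNA encodes the sorting antigen. Tagln3 was higher by 0.99. Plxna2 was higher by 1.63 and was above all GPB+ libraries in all 3 GCPB+ libraries. Bid had a fitted difference of 8.09, which depends on the prior count because all GPB+ libraries were at 0. Pdgfra had a fitted difference of -7.99, with 0.0368, 0.0819 and 0 CPM in GCPB+ cells, against 4.06, 6.05 and 17.8 CPM in GPB+ cells, 1 GCPB+ library being at 0. No explanation of these differences was tested.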

How the results depend on the processing

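Between GCPB+ and CTX cells, 681 genes were higher and 415 lower. The counts were 682 and 444 with DESeq2, 693 and 388 with RLE factors, 663 and 431 with upper quartile factors, 681 and 423 without a filter, 707 and 495 with a filter of 5 CPM, and 718 and 702 with the libraries of the 2 groups alone. With limma they were 568 and 610 on log2(FPKM + 1), 593 and 516 on log2(FPKM + 0.1) and 454 and 579 without a filter. The replicate block gave 883 higher and 611 lower genes, but no label says that the numbers pair these libraries. In deviations from the group means, each GCPB+ library still correlated best with the CTX library of its own number, a hint from the data only that does not hold for the log2 CPM themselves. When single libraries were left out, the number higher was 384 to 617 and the number lower 192 to 420. It was 408 and 192 without GCPB+ replicate 2, 428 and 216 without GCPB+ replicate 3, 485 and 265 without CTX replicate 1, 431 and 278 without CTX replicate 2 and 384 and 240 without CTX replicate 3. Over 154 named genes called, 64 kept their call in every alternative that gave them an adjusted p. An alternative that filtered a gene out was skipped for that gene. Of 2461 values of a gene under an alternative, 2046 kept direction and side of the threshold, 412 lost the call, 2 gained it and 1 changed sign: Egfr, not called in any fit, changed by 0.10 without GCPB+ replicate 1 and by -0.39 to 0.10 over all single libraries left out, against -0.11 with all. Pdgfrb was called with the 2 groups alone (adjusted p = 0.0376) and with the replicate block (0.0379). The cause of these changes was not tested.

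Between GCPB+ and GPB+ cells, 4 genes were higher and 1 lower. The counts were 2 and 0 with the replicate block, 13 and 6 with DESeq2, 1 and 1 with the 2 groups alone, and 1 and 0, 1 and 0, and 2 and 2 with limma on log2(FPKM + 1), on log2(FPKM + 0.1) and without a filter. The number lower was 2 without a filter on counts and 2 with a filter of 5 CPM. When single libraries were left out, the number higher was 0 to 2 and the number lower 0 to 1. With the 2 groups alone, Crym was the gene called lower (adjusted p = 0.00901). DESeq2 gave no adjusted p for 966 and 1281 genes in the comparisons with CTX and GPB+ cells. Genes under 3 counts, or 0.102 to 0.246 CPM, could not be told from absent ones.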
